A study of Bos taurus with 14 samples.

Results

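Immediate early genes are genes whose transcription starts within a short time of a signal reaching the cell, without new protein having to be made first. The 10 genes described here are *FOS*, *FOSB*, *JUN*, *JUNB*, *EGR1*, *ATF3*, *IER2*, *MYC*, *DUSP1* and *BTG2*. They were taken by name, and every probe set (a group of short oligonucleotides on the array that reads a transcript) carrying the symbol of 1 of them alone was used. In all, 18 of the 24016 bovine probe sets on the array, for 9 of the 9155 genes with a symbol, met this rule. *BTG2*, which encodes an antiproliferative protein, has no probe set named for it in the annotation used and was not analysed here. Each of the other 9 genes is given at its probe set of highest mean over the 14 arrays, and its other probe sets serve as a check.

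The samples were *M. longissimus dorsi* (LD) muscle, the long muscle of the back, from Charolais × Limousin crossbred heifers, 1 array per animal. The 7 outdoor/pasture-fed heifers grazed a sward mainly of ryegrass, meadow grasses and white clover, and the 7 indoor/concentrate-fed heifers were housed throughout and ate a concentrate based on beet pulp and barley, with straw. Both groups were slaughtered at the same plant, and muscle was taken shortly after death. The animals were kept in several groups within each system, which the labels do not name, so production system, diet, housing and management group cannot be told apart here, and p-values treat each animal as an independent sample.

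Many immediate early genes encode transcription factors. The FOS and JUN proteins pair to form activator protein 1 (AP-1), which binds DNA and regulates genes that follow later, and the mRNAs of many of these genes are short-lived. In skeletal muscle they are known to respond to contraction, injury and stress signals, through kinase cascades that end on factors bound at their promoters.

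The deposited values are log2 expression values, which the authors made by quantile normalisation and by Factor Analysis for Robust Microarray Summarisation, or FARMS, a model that merges the probes of a probe set. FARMS returned nearly the same value on every array for 59.9% of all probe sets, and only the 9623 whose standard deviation (SD) over all arrays exceeded 0.01 are called varying here. Of the 18 probe sets 15 varied, while 1 for *EGR1* and 2 for *IER2* did not and carry no difference between animals. Array medians lay between 6.77 and 6.84. The skeletal muscle marker *TNNC2*, a troponin of fast fibres, averaged 14.41 in the outdoor/pasture-fed group and 14.42 in the indoor/concentrate-fed group, in a table that spans 4.95 to 14.44. The markers *ACTA1* and *CKM* are read by flat probe sets, which FARMS set at 14.11 and 13.81 on every array. Array values of different probe sets depend on their probes, so the genes are not ranked by level.

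The first comparison asked whether the genes differed between the production systems. All 9 genes had a lower mean in outdoor/pasture-fed than in indoor/concentrate-fed heifers, as did all 15 varying probe sets, against 52.5% of all varying probe sets. The genes varied together between animals, as described below, and several probe sets read the same gene, so these are not separate observations of a direction. The median difference over the 9 genes was -0.49 on the log2 scale, whereas it was -0.01 over all varying probe sets. None of the 9 genes passed an adjusted p of 0.05 in limma's test over all 24016 probe sets, which 0.0167% of these passed. None of the 9 genes passed in limma's test over the varying probe sets alone either, although 33 varying probe sets did. At an unadjusted p under 0.05, limma found 4 of the 9 genes, *FOS*, *FOSB*, *JUNB* and *EGR1*, and the exact permutation test found 4 as well. The background for such a call in this direction was 6.07% of all and 10.7% of varying probe sets. In every gene the ranges of the groups overlapped. The share of all probe sets whose ranges overlap is not given here, so this describes the 9 genes only.

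**Figure D1:**
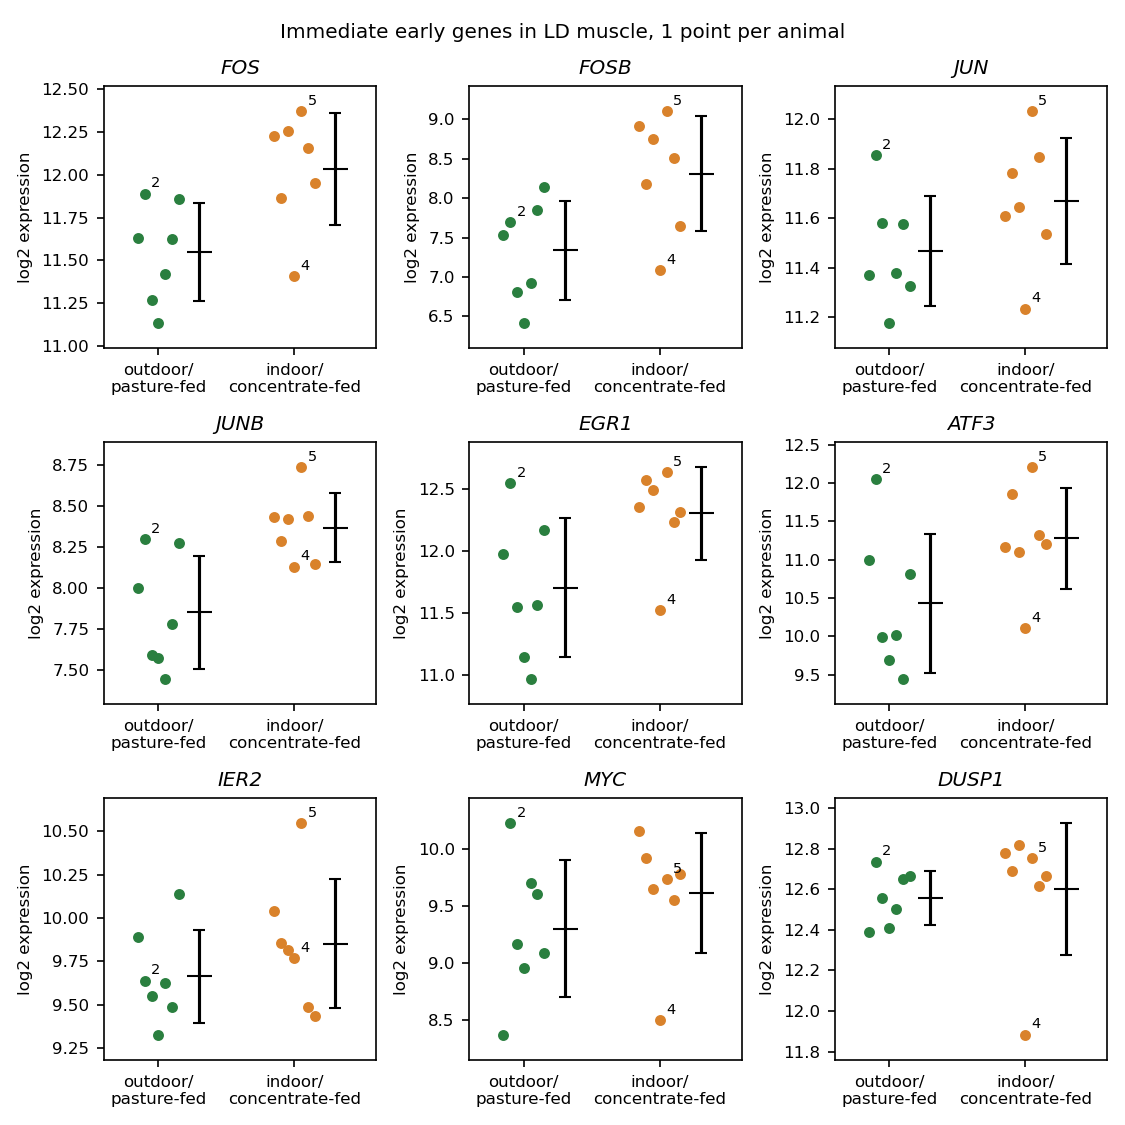
Log2 expression (vertical axes, 1 scale per gene) of the 9 measured immediate early genes in outdoor/pasture-fed (left, green) and indoor/concentrate-fed (right, orange) heifers, 1 point per animal, with mean and SD beside them (n = 7 each). Numbers mark replicate 2 at pasture and replicates 4 and 5 of the housed group. The mean lay lower at pasture in every panel, the ranges overlapped in every panel, and indoor/concentrate-fed replicate 4 was the lowest of its group in 8 of 9.

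*FOS* encodes the founding member of the FOS proteins, which bind DNA only as partners of JUN proteins. At its probe set of highest mean it had a lowest, median and highest value of 11.14, 11.62 and 11.89 in outdoor/pasture-fed heifers, against 11.41, 12.16 and 12.37 in indoor/concentrate-fed heifers. All 7 outdoor/pasture-fed animals lay below the indoor/concentrate-fed median, and the groups overlapped mainly through a single low housed animal, replicate 4. The difference was -0.49 ± 0.16 (SE, n = 7 each), a fold of 0.714 (outdoor/pasture-fed over indoor/concentrate-fed), with an exact permutation p of 0.0140 (two-sided) and an adjusted p of 0.283 in limma over all probe sets. The second probe set differed by -0.86 ± 0.26, with an exact permutation p of 0.00874 and a limma adjusted p of 0.249. The deviations of the animals from their group means on the 2 probe sets went together at r = 0.99 over 14 animals.

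*FOSB* encodes a close relative of FOS with the same kind of partner. Its values were 6.42, 7.53 and 8.14 (lowest, median and highest) at pasture, against 7.08, 8.51 and 9.10 in the indoor/concentrate-fed group. As for *FOS*, every outdoor/pasture-fed animal lay below the indoor/concentrate-fed median, and the 2 lowest housed animals, replicates 4 and 7, lay within the outdoor/pasture-fed range. *FOSB* had the widest difference of the 9 genes, -0.97 ± 0.36, a fold of 0.509, with an exact permutation p of 0.0233 and a limma adjusted p of 0.327. Its second probe set differed by -0.34 ± 0.12 (limma adjusted p = 0.294) and followed the first over the animals at r = 0.98. The 2 probe sets of each gene thus gave differences of unlike size in the same direction.

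*JUNB* encodes a JUN protein that pairs with FOS proteins and often opposes JUN. Its values were 7.45, 7.78 and 8.30 at pasture, against 8.13, 8.42 and 8.74 in the indoor/concentrate-fed group. The overlap was small, since 5 outdoor/pasture-fed animals lay below every housed animal and only replicates 2 and 7 reached into the housed range. The difference was -0.52 ± 0.15, a fold of 0.699, with an exact permutation p of 0.00932, where the smallest that 7 against 7 allows is 0.000583. The limma adjusted p was 0.242 over all probe sets and 0.0993 over the varying ones, the smallest among the 9 genes in both.

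*JUN*, the main partner of FOS in AP-1, had 5 probe sets. At the probe set of highest mean it had values of 11.18, 11.38 and 11.86 at pasture, against 11.23, 11.64 and 12.03 in the indoor/concentrate-fed group, so that each range covered most of the other. The difference was -0.20 ± 0.13 (exact permutation p = 0.133, limma adjusted p = 0.586), and an interval of 2 SE ran from -0.46 to 0.05. The other 4 probe sets differed by -0.34 to -0.10, all in the same direction, and 1 of them had an unadjusted p under 0.05 (exact permutation p = 0.0425). They followed the first over the animals at r between 0.80 and 0.98.

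*ATF3* encodes a factor of the same structural family that can pair with JUN and is induced by many kinds of cell stress. Its values were 9.45, 10.02 and 12.05 at pasture, against 10.11, 11.20 and 12.20 in the indoor/concentrate-fed group. Outdoor/pasture-fed replicate 2 exceeded all housed animals but 1, while 4 outdoor/pasture-fed animals lay below the whole housed range. The difference was -0.85 ± 0.42, a fold of 0.555, with an exact permutation p of 0.0705 and a limma adjusted p of 0.476.

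*EGR1* encodes a zinc finger factor that binds GC-rich promoters. Its values were 10.97, 11.57 and 12.55 at pasture, against 11.53, 12.36 and 12.64 in the indoor/concentrate-fed group. Apart from replicate 4 at the low end, the housed animals lay close together and mostly above the outdoor/pasture-fed ones, of which replicate 2 was again the highest. The difference was -0.60 ± 0.25, a fold of 0.659, with an exact permutation p of 0.0367 and a limma adjusted p of 0.390.

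The other 3 genes had the smallest differences relative to their errors. *MYC*, which encodes a regulator of growth and ribosome production, had values of 8.37, 9.16 and 10.22 at pasture, against 8.50, 9.73 and 10.15 in the indoor/concentrate-fed group. The lowest and the highest animal of all 14 were both at pasture, and the difference was -0.31 ± 0.30 (exact permutation p = 0.313, limma adjusted p = 0.760). *IER2*, a nuclear early response protein whose function is less well known, had values of 9.33, 9.63 and 10.14 at pasture, against 9.44, 9.82 and 10.55 in the indoor/concentrate-fed group.

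For *IER2* the ranges nearly coincided apart from the highest housed animal, replicate 5, and the difference was -0.19 ± 0.17 (exact permutation p = 0.315, limma adjusted p = 0.747). *DUSP1* encodes a phosphatase that switches off the mitogen-activated protein (MAP) kinases, and so acts as a brake on the signals that induce these genes. Its values were 12.39, 12.56 and 12.74 at pasture, against 11.88, 12.69 and 12.82 in the indoor/concentrate-fed group. Replicate 4 lay far below the other housed animals, and the difference was -0.04 ± 0.13, with an interval of 2 SE from -0.30 to 0.22 (exact permutation p = 0.825, limma adjusted p = 0.940).

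**Figure D2:**
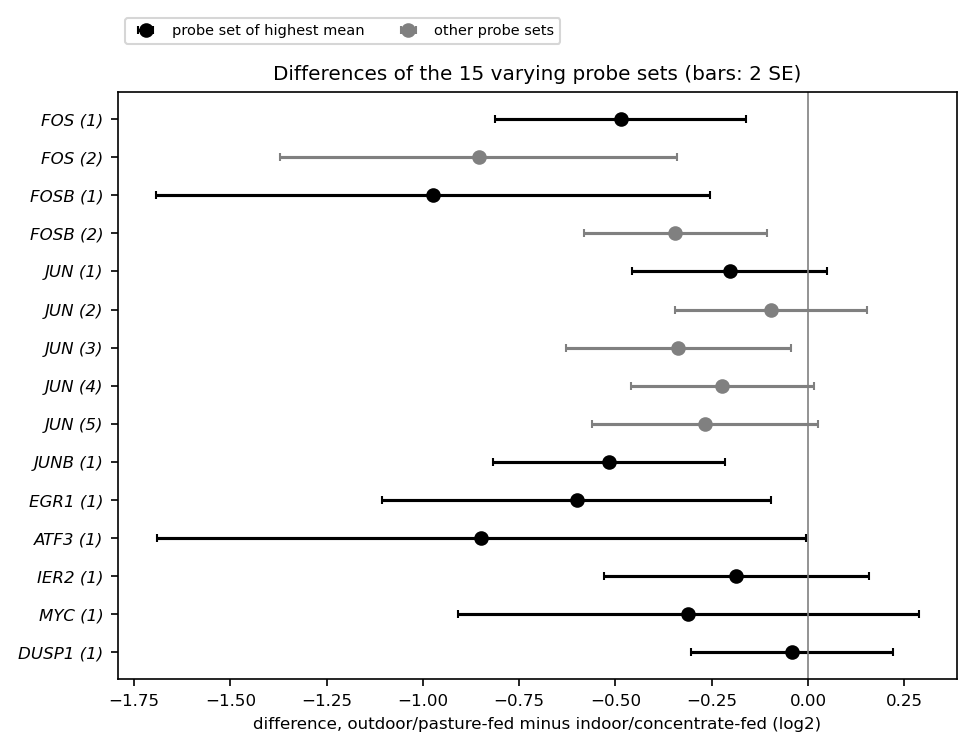
Difference in log2 expression, outdoor/pasture-fed minus indoor/concentrate-fed (horizontal axis), of the 15 varying probe sets, 1 row each (points, with bars of 2 SE either side, n = 7 each). Probe sets are numbered within a gene by falling mean, and the first (black) is the one the text uses. All 15 points lie below 0, from -0.97 for *FOSB* to -0.04 for *DUSP1*.

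A single housed animal weighed on these values. Indoor/concentrate-fed replicate 4 had the lowest value of its group for 8 of the 9 genes, whereas it was the lowest of its group for 11.2% of all varying probe sets. The array is singled out on the values of these same genes, so leaving it out must widen most of their differences, and the values without it are no separate support. Leaving this array out, 7 of the 9 genes had an unadjusted p under 0.05 in place of 4, both in limma and in the exact permutation test, against 5.76% of all and 10.0% of varying probe sets lower at such a p in that fit. The added genes were *JUN*, *ATF3* and *DUSP1*. Leaving out each of the other 13 arrays gave 3 to 6 genes in limma. No gene passed the adjusted threshold without it (limma adjusted p of 0.195 for *FOS* and 0.231 for *FOSB*), and all 9 ranges still overlapped. *FOS* then differed by -0.59 ± 0.14 (exact permutation p = 0.00291), *JUN* by -0.28 ± 0.11 (exact permutation p = 0.0408), *ATF3* by -1.04 ± 0.41 (exact permutation p = 0.0256) and *DUSP1* by -0.16 ± 0.06 (exact permutation p = 0.0268), with n = 7 against 6. At the second *FOS* probe set replicate 4 was the lowest housed animal at 8.46, and leaving it out removed the overlap of the groups. The lowest housed value was then 9.16 and the highest at pasture 9.11 (exact permutation p = 0.00175). At the second *FOSB* probe set the groups overlapped. The share of all probe sets whose ranges overlap without replicate 4 is not given here, so these ranges describe the named probe sets only.

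The genes varied widely between animals within a group. The SD within groups was 0.79 for *ATF3*, 0.68 for *FOSB*, 0.57 for *MYC* and 0.48 for *EGR1*, above those of 99.0%, 98.3%, 96.7% and 94.1% of the varying probe sets. The smallest was 0.24 for *JUN*, still above 70.9% of them, and the median of the 9 genes was 0.32, against 0.17 over all varying probe sets. The mean absolute deviation from the group median was wider at pasture for 4 of the 9 genes, *JUNB*, *EGR1*, *ATF3* and *MYC*, against 39.1% of varying probe sets. It was 0.68 at pasture and 0.43 in the indoor/concentrate-fed group for *ATF3*, and 0.28 at pasture and 0.15 in the indoor/concentrate-fed group for *JUNB*. By the exact permutation test of the spread, none of the 9 genes passed the threshold after Benjamini-Hochberg adjustment (adjusted p = 0.998 for each) and 0 had an unadjusted p under 0.05, against 2.43% of varying probe sets.

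The second question was whether the genes varied together between animals. After the group mean was taken off each value, the 36 pairs of the 9 genes had a median Pearson r of 0.65 over 14 animals, and r was above 0 in 35 pairs. Over all 46296253 pairs of varying probe sets the median r was 0.01, and 2.63% of those pairs had an r at or above the median of the 9 genes. Those pairs were not matched for SD, in which the 9 genes stood above most varying probe sets, and the effect of such matching was not tested. With p-values from 100000 resamples within groups, adjusted over the 36 pairs, 20 pairs passed 0.05 by r, 13 by Spearman's rho and 12 by both. The share of other pairs on the array that pass this test over 14 animals is not given here, so these counts describe the 36 pairs only. All values of an animal come from 1 array, so the pairs are not independent of one another.

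*FOS* and *FOSB* varied most closely together, with r = 0.94 and rho = 0.85 (permutation p = 1e-05, the smallest the resamples can give, adjusted p = 0.00036, and permutation p = 0.00033 for rho). The 6 pairs among *FOS*, *FOSB*, *JUNB* and *EGR1* had r between 0.73 and 0.94, and all 6 passed by both measures. *ATF3* joined *EGR1* at r = 0.87 and rho = 0.89 (permutation p = 0.00043 and 0.00057, adjusted p = 0.00387 and 0.00518). *ATF3* also passed by both measures with *FOS* and *JUNB*, but with *FOSB* by neither (r = 0.56, rho = 0.47, adjusted p = 0.0685 and 0.157 from the permutations).

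*DUSP1* varied with *FOS* at r = 0.79 and rho = 0.78 (permutation p = 0.00265 and 0.00156, adjusted p = 0.0107 and 0.00796), and with *FOSB* and *EGR1* by both measures as well. *JUN* had 5 pairs past the threshold by r and none by rho. *MYC* passed by r with *DUSP1* (r = 0.78) and *JUN* (r = 0.65) alone, and by rho with none. *IER2* passed by r with *JUNB* (r = 0.66) and *FOSB* (r = 0.63), by rho with *EGR1* (rho = 0.68), and with none by both. *IER2* and *MYC* stood lowest of all pairs, with r = -0.02 and rho = 0.09 (permutation p = 0.949 and 0.766). Set against the mean of the other 8 genes, r was highest for *FOS* at 0.92, followed by *EGR1* at 0.86 and *FOSB* at 0.86, and lowest for *MYC* at 0.52 and *IER2* at 0.48.

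**Figure D3:**
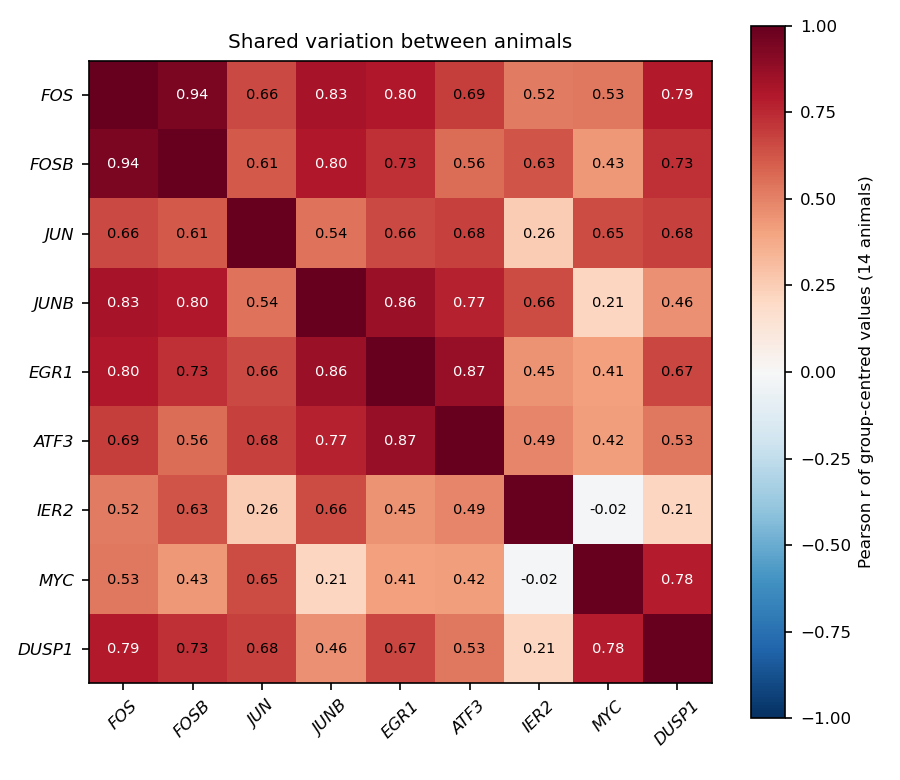
Pearson r (colour and number) between each pair of the 9 genes (both axes) over 14 animals, after the group mean was taken off. The median of the 36 pairs is 0.65, *FOS* and *FOSB* stand highest at 0.94, and *IER2* and *MYC* lowest at -0.02.

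Without the 2 animals farthest from the median of the first gene of a pair in alphabetical order, 15 of the 20 pairs past the threshold by r kept an r above 0.5. Of the other 5, 4 were pairs of *JUN*, with *FOS* (r = 0.30), *EGR1* (0.33), *ATF3* (0.37) and *DUSP1* (0.48). The last was *IER2* with *JUNB* (0.38). The limit of 0.5 is a chosen cut, and some pairs kept it narrowly, such as *DUSP1* with *MYC* (0.5001) and *ATF3* with *FOS* (0.505). Leaving out animals far from the median also narrows the range, so a lower r alone does not show that a pair rests on them. *FOS* and *FOSB* kept r = 0.88, and *FOS* and *JUNB* 0.89.

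Within the groups, the median r of the 36 pairs was 0.58 in outdoor/pasture-fed and 0.75 in indoor/concentrate-fed heifers, and 34 pairs were above 0 in both. The difference between the groups was not tested. By the exact permutation test within 7 animals, 7 pairs at pasture and 15 pairs in the indoor/concentrate-fed group had an unadjusted p under 0.05 for r, all with r above 0. Among the pairs of these genes with all other varying probe sets on the array, 3.07% at pasture and 1.61% in the indoor/concentrate-fed group did so with r above 0. After adjustment over the 36 pairs, 1 passed at pasture, *EGR1* with *JUNB* (r = 0.96, exact permutation p = 0.000992, adjusted p = 0.0357), and 0 passed in the indoor/concentrate-fed group. *FOS* and *FOSB* had r = 0.93 (exact permutation p = 0.00278) at pasture and r = 0.94 (exact permutation p = 0.00238) in the indoor/concentrate-fed group. Without replicate 4 the median r in the indoor/concentrate-fed group was 0.51, and without replicate 2 it was 0.49 at pasture.

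The shared variation followed particular animals. Outdoor/pasture-fed replicate 2 was the highest of its group for 7 of the 9 genes and replicate 7 for the other 2, while replicate 4 lay below the group mean for all 9. In the indoor/concentrate-fed group, replicate 5 lay above the mean for all 9 genes and was the highest for 7, and replicate 4 lay below the mean for all 9. The deviations from the group mean were divided by their SD over the 14 animals and averaged over the 9 genes. On this scale the outdoor/pasture-fed animals ran from -1.07 (replicate 4) to 1.26 (replicate 2) and the indoor/concentrate-fed animals from -1.70 (replicate 4) to 1.14 (replicate 5). Over all varying probe sets, outdoor/pasture-fed replicate 2 was the highest of its group for 13.8%, and indoor/concentrate-fed replicate 5 for 9.13%.

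**Figure D4:**
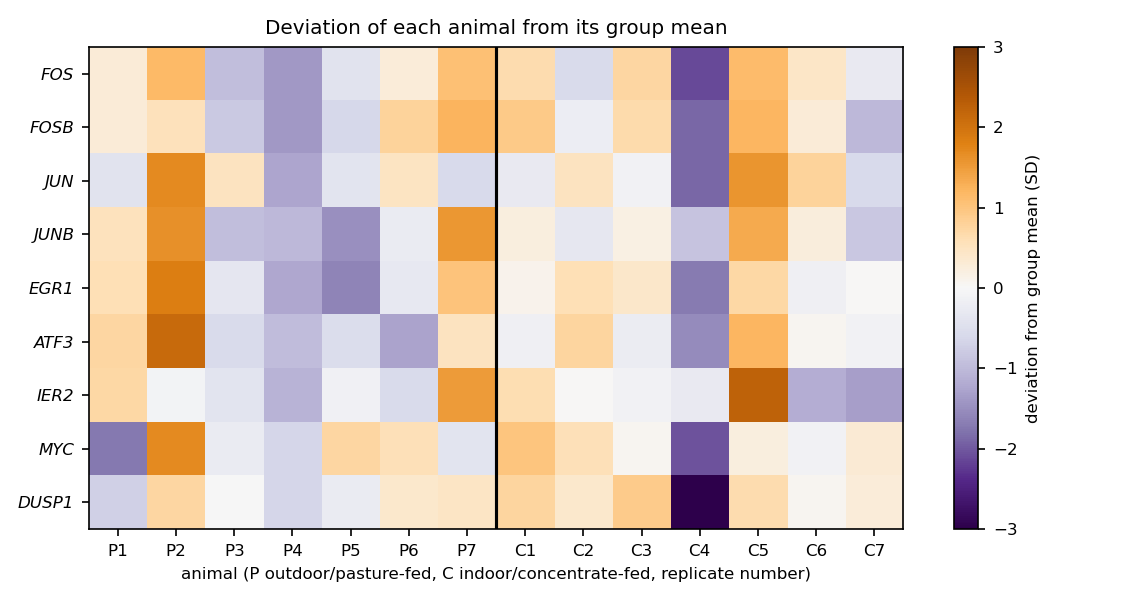
Colour gives the deviation of each animal from its group mean, divided by the SD of these deviations over the 14 animals. Columns are animals (P outdoor/pasture-fed and C indoor/concentrate-fed, with replicate number), and rows are the 9 genes. P2 and C5 are high and P4 and C4 are low across most genes, with averages of 1.26, 1.14, -1.07 and -1.70.

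Among genes outside the list with 1 symbol and an SD over 0.1, those whose group-centred values were most like the mean profile of the 9 genes, by Pearson r over 14 animals, were *JUND* (0.93), *ADNP2* (0.86), *GPAT3* (0.86), *H3-3B* (0.86), *PITPNA* (0.85), *DDIT4* (0.80), *F3* (0.79) and *APOLD1* (0.79). The most opposed were *SLAIN2* (-0.82), *CNIH4* (-0.79), *VAPB* (-0.78) and *MFSD14B* (-0.76). They were picked from all such probe sets for this likeness, so the r values describe and do not test it. Closeness between animals did not fix the difference between the groups: *JUND* differed by -0.14 ± 0.06 (limma adjusted p = 0.372), but *PITPNA* by 0.39 ± 0.15 (limma adjusted p = 0.333) and *GPAT3* by 0.59 ± 0.36 (limma adjusted p = 0.574).

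Of 97 further genes of the same response, 64 had a named probe set and 48 of these varied. None passed an adjusted p of 0.05 in limma. At an unadjusted p under 0.05, 3 of the 48 varying genes were higher at pasture, against a background of 9.23% of varying probe sets, and 5 (10.4%) were lower, close to the background of 10.7%. A further gene with such a p, *ATF1*, is read by a flat probe set that carries no difference between animals. Among 13 measured other early transcription factors 11 varied, and all 11 had a lower mean at pasture, with a median difference of -0.18. Their values had a median r of 0.53 with the mean profile of the 9 genes over the animals, so they are not separate observations either. The 2 with the smallest p were *BHLHE40*, a repressor that also takes part in the circadian clock, at 7.87 ± 0.64 at pasture and 8.73 ± 0.52 in the indoor/concentrate-fed group (SD, n = 7 each), and *JUND*, the third JUN protein, at 11.78 ± 0.11 at pasture and 11.92 ± 0.10 in the indoor/concentrate-fed group. Their differences were -0.86 ± 0.31 (limma adjusted p = 0.317) and -0.14 ± 0.06 (limma adjusted p = 0.372).

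Among 25 measured other early effectors and feedback inhibitors 21 varied, 7 with a higher and 14 with a lower mean at pasture, and the median difference was -0.08. *PPP1R15A*, a phosphatase subunit that restores translation after stress, differed by -0.82 ± 0.24, and *BTG1*, a relative of the unmeasured *BTG2*, by 0.31 ± 0.09 in the other direction (limma adjusted p = 0.242 and 0.250). Among 19 measured upstream kinases and factors 12 varied, 5 higher and 7 lower, with a median difference of -0.01. *RPS6KA1*, a kinase activated by the MAP kinases ERK, differed by -0.33 ± 0.08, and *BRAF*, which lies upstream of ERK, by 0.20 ± 0.06 (limma adjusted p = 0.187 and 0.280). Of 7 measured dimer partners of AP-1 and MYC 4 varied, and *MXI1*, which competes with MYC for its partner, differed by 0.32 ± 0.14 and *MLX* by -0.23 ± 0.11 (limma adjusted p = 0.423 and 0.485). The lower means at pasture were thus found in all varying early transcription factors, but not in all members of the other lists.

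**Figure D5:**
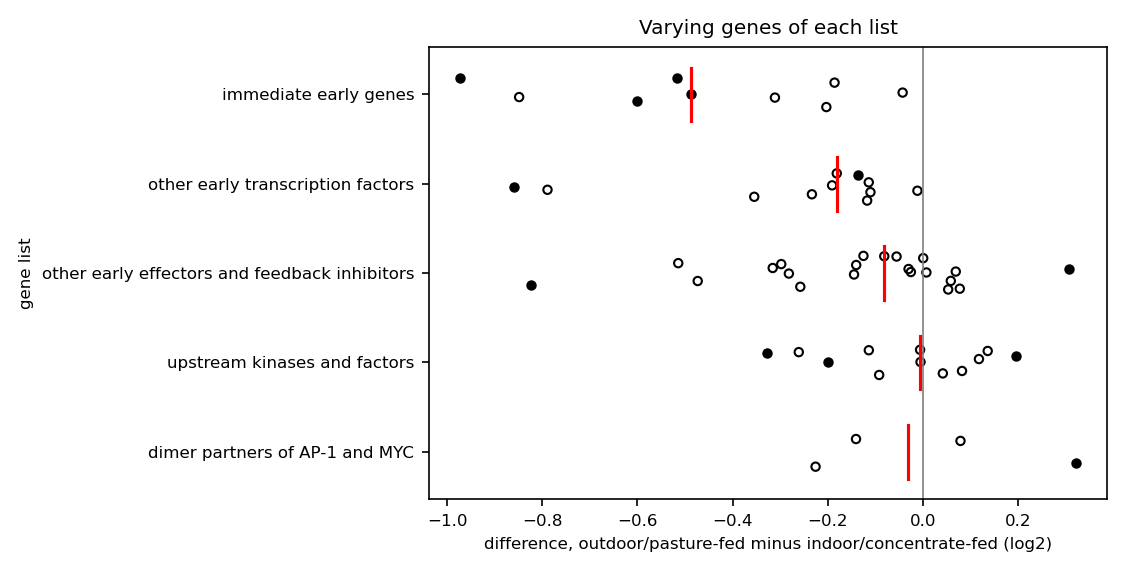
Difference in log2 expression, outdoor/pasture-fed minus indoor/concentrate-fed (horizontal axis), of the varying genes of the 9 immediate early genes and of 4 further lists (vertical axis, 1 row per list). Each point is a gene, filled where its unadjusted limma p was under 0.05, with vertical offsets for legibility only, and red lines are list medians. Medians were -0.49, -0.18, -0.08, -0.01 and -0.03 from top to bottom, and no gene shown passed the adjusted threshold.

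Muscle samples hold several cell types, and in such bulk samples fewer cells of a type and less RNA per cell cannot be told apart. Of 7 endothelial markers, led by *TEK*, 6 had an unadjusted limma p under 0.05, all of them with a higher mean at pasture, against 5.35% of all and 9.23% of varying probe sets, and 0 passed the adjusted threshold. Their summed level ran from 12.33 to 12.88 at pasture, against 11.69 to 12.35 in the indoor/concentrate-fed group, a difference of 0.49 (exact permutation p = 0.00175). This was opposite in direction to the immediate early genes, and the r of the sum with their mean profile over animals was -0.17. The 4 measured adipocyte markers, led by *FABP4*, all had lower means at pasture, none at an unadjusted p under 0.05. Of these, *ADIPOQ* (5.91 at pasture, 5.98 housed) and *LEP* (5.64 and 5.85) lay below the array medians, so a summed level rests mainly on *FABP4* and *CIDEC*. The summed level of the 4 adipocyte markers ran from 8.67 to 10.07 at pasture, against 8.45 to 11.55 in the indoor/concentrate-fed group, with r = 0.59 with the mean profile, and indoor/concentrate-fed replicate 4 was the lowest of all 14 animals for it.

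For 5 smooth muscle markers, led by *ACTA2*, the summed level ran from 10.43 to 11.31 at pasture, against 9.90 to 11.02 in the indoor/concentrate-fed group, and r was 0.49. For 7 measured leukocyte markers, led by *PTPRC*, it ran from 9.54 to 10.30 at pasture, against 9.18 to 10.16 in the indoor/concentrate-fed group (r = -0.20). For 6 fibroblast markers, led by *DCN*, it ran from 13.64 to 14.99 at pasture, against 13.76 to 14.71 in the indoor/concentrate-fed group (r = -0.23). Of 5 measured red blood cell markers only 2 varied, the highest being *AHSP*, and the summed level ran from 8.19 to 8.39 at pasture, against 8.28 to 8.51 in the indoor/concentrate-fed group (r = -0.35). Of 9 measured skeletal muscle markers 5 varied, 3 with a higher and 2 with a lower mean at pasture, 1 in each direction at an unadjusted limma p under 0.05. The summed level of the 9 skeletal muscle markers ran from 17.00 to 17.03 at pasture, against 16.91 to 17.03 in the indoor/concentrate-fed group (r = -0.22). This sum includes flat probe sets that FARMS set to a constant, such as *ACTA1* and *CKM*, which narrows its range. The red blood cell sum also includes flat probe sets. The part of these cell types in the variation of the immediate early genes was not tested.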

How the data were processed

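LD muscle RNA of 14 heifers, 7 per group by the sample labels, was amplified, labelled and hybridised to Affymetrix Bovine Genome arrays. The authors, by their methods, applied quantile normalisation and FARMS summarisation (the qFarms function), and deposited log2 values. No normalisation was added. FARMS shrinks uninformative probe sets to a constant, which understates their differences. The authors' filter for informative probe sets needs probe-level data and was not repeated. The number of arrays limits the precision.

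The 112 control probe sets were left out. Gene names come from the platform annotation: 13292 probe sets have 1 symbol, 86 several and 10638 none. The files name no genome build, so no locations are given. Differences, outdoor/pasture-fed minus indoor/concentrate-fed, were fitted over all probe sets in R 4.3.3 by the linear model and moderated statistics of limma 3.58.1 (lmFit, eBayes), with Benjamini-Hochberg adjustment. Exact permutation tests (two-sided, every assignment of 14 arrays) and correlations used Python 3.11.15, NumPy 2.4.6 and SciPy 1.17.1. The fit and the tests were checked on simulated data. Summed levels are the log2 of the sum of unlogged values.

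The 9 measured genes were all named. In each further list the 2 genes with the smallest p were named where none passed, and 8 genes most and 4 least like the mean profile. The genes and lists were chosen with earlier results of these data known. Alternatives were other probe sets, filters, priors, normalisations, array weights, a replicate block and leaving out each array.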

Additional observations from a re-analysis of the deposited data

Results flagged for a closer look

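In 3 of 30 groups of values of the varying probe sets, each of 7 animals, a single animal lay apart from the rest of its group by Dixon's criterion, which sets its gap to the nearest animal against the range of the group. Chance gives this in about 1 of 20 groups. All 3 concerned indoor/concentrate-fed replicate 4 as the lowest animal. *EGR1* was at 11.53 in this animal, against 12.23 in the next lowest, *MYC* at 8.50 against 9.55, and *DUSP1* at 11.88 against 12.62. The groups tested are not independent, because the genes vary together and several probe sets read the same gene.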

How the results depend on the processing

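All 216 differences of the 9 genes under 24 alternatives each kept their direction, with limma adjusted p between 0.0902 and 1.0, so that no gene passed the threshold under any of them. The genes with an unadjusted p under 0.05 numbered 3 to 7 when each array was left out in turn, 7 without indoor/concentrate-fed replicate 4, and 4 to 5 under the other alternatives. The varying genes of the 4 further lists that were lower at pasture at such a p numbered 5, against 3 to 13 when each array was left out (3 without outdoor/pasture-fed replicate 3 and 13 without indoor/concentrate-fed replicate 4), 8 with array weights and 8 with the replicate block. The 20 pairs past the adjusted threshold became 8 without that array, 12 without outdoor/pasture-fed replicate 2 and 13 with Spearman's rho, and ran from 8 to 25 when each array was left out. The median r of the 36 pairs stayed between 0.53 and 0.68. The cause of these shifts was not tested. In an alternative chosen after seeing the data, the median r within the indoor/concentrate-fed group ran from 0.51 to 0.82 and within the outdoor/pasture-fed group from 0.49 to 0.67 when each array of the group was left out. In the spread, 0 to 1 genes had an unadjusted p under 0.05, the 1 (*JUNB*) without outdoor/pasture-fed replicate 6.

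Replicate numbers occur in both groups, and the deviations of same-numbered arrays from their group means correlated at r from -0.18 to 0.24. Of the 7 outdoor/pasture-fed arrays 2 correlated best with their own number. No clear pairing by number was thus seen, but low correlations cannot exclude one, and the labels do not say what the numbers mean. The main tests treat the samples as unpaired. With a replicate block, 5 of the 9 genes had an unadjusted p under 0.05 and 0 passed after adjustment in limma.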
